A study of Mus musculus with 20 samples.

Results

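The Slc25 family is the set of nuclear-encoded carriers that move metabolites, nucleotides, cofactors and inorganic ions through the inner mitochondrial membrane, with a few members in other membranes. Its genes were taken here as every gene named Slc25a followed by a number, and kept where the mean normalised count reached at least 10 in at least 1 of the 5 deposited day tables. Such a name was borne by 44 of the 33581 genes listed, of which 39 were kept, and all 39 were among the 16497 genes tested. The material was 3T3-L1, mouse preadipocytes in culture that turn into adipocytes under a hormone cocktail, and the readout was RNA-seq. Knockdown cells carried a lentiviral short hairpin against Tcf7l2, a transcription factor of Wnt signalling, and control cells carried a scrambled hairpin. Both arms were made by infection of low-passage cells and puromycin selection, both were mixed populations and not clones, and for both a thiazolidinedione was not a routine part of the differentiation medium. Days 0, 2, 4, 6 and 8 of differentiation each have 2 libraries from either arm, 20 in all. Nothing in the labels ties the 2 libraries of a group to separate cultures, and p-values thus measure a spread between libraries that may be technical. The labels name 1 hairpin against Tcf7l2 for these libraries, so an effect of that hairpin and loss of Tcf7l2 cannot be told apart.

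Carriers of this family share a fold of repeated membrane-spanning modules, alternate between a side open to the cytosol and one open to the matrix, and reach the inner membrane through the Tom70, small Tim and Tim22 import route. In fat cells the best known of them connect the matrix with lipid synthesis: the citrate carrier brings out the carbon that becomes cytosolic acetyl-CoA, the dicarboxylate carrier exchanges malate or succinate for phosphate, and the ADP/ATP and phosphate carriers serve oxidative phosphorylation. Uncoupling protein 1 of brown fat belongs to the same family under another symbol.

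Libraries held 20153362 to 33973608 reads recovered from the deposited values, and levels are given as RPM, reads scaled to a library total of 1000000. Tcf7l2 was 12.2 to 23.4 RPM in the 10 knockdown libraries, against 38.5 to 59.0 RPM in the 10 scrambled libraries, so the hairpin arms were as labelled. The 7 adipocyte markers summed to 885 and 1649 RPM in knockdown cells at day 8, against 2486 and 13836 RPM in scrambled cells. All 7 passed the test as lower in knockdown cells over the time course. Scrambled library 2 stood far above library 1 in that sum also at day 4 (6602 and 1636 RPM) and day 6 (12385 and 5499 RPM). In bulk RNA fewer adipocytes and less of a transcript per adipocyte cannot be told apart, and the part of adipocyte content in the carrier differences was not tested. The 4 endothelial markers were under 1 RPM in every library, the macrophage markers Emr1 and Ptprc were at 0 and at most 0.129 RPM, and the muscle markers Myod1 and Ckm were at 0. The macrophage list summed to 1.63 to 9.60 RPM and the muscle list to 21.6 to 35.8 RPM, nearly all of it Acta1. Acta1 was itself higher in knockdown cells on average, by 0.18 ± 0.063 (log2, SE, limma adjusted p = 0.0467). The 4 preadipocyte markers summed to 2860 and 3645 RPM in knockdown cells at day 8, against 3901 and 2126 RPM in scrambled cells. At day 0 they summed to 3220 and 3098 RPM in knockdown cells, against 5134 and 5191 RPM in scrambled cells. The adipocyte sum at day 0 was 69.9 and 50.5 RPM in knockdown cells, against 100.4 and 83.4 RPM in scrambled cells. No marker of these 2 lists was called at day 0. Over the time course 2 preadipocyte markers were called higher and 1 lower.

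Across the time course, 13 of the 39 carriers differed between the hairpins in the average knockdown effect (limma, adjusted p under 0.05 over all genes), against 25.4% of all genes tested. Of these, 5 were higher in knockdown cells (12.3% of all genes) and 8 were lower (13.2% of all genes). The higher ones were the ADP/ATP carrier Slc25a4, the ATP-Mg/phosphate carrier Slc25a24, the mitochondrial iron importer Slc25a37 and the uncoupling-like carriers Slc25a14 and Slc25a30. The lower ones were the dicarboxylate carrier Slc25a10, the ADP/ATP carrier Slc25a5, and Slc25a15, Slc25a16, Slc25a23, Slc25a40, Slc25a42 and Slc25a44. The median log2 difference over the 39 carriers was -0.17, against -0.0028 over all genes tested. A difference of log2 values is knockdown minus scrambled throughout, on the authors' variance-stabilised scale, which understates the change of low genes. The exception in scale is the difference between the arms in change over days, which was computed on recovered reads.

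With libraries of the same number treated as pairs, 20 of the 39 carriers were called in the average effect, 6 higher and 14 lower, against 35.9% of all genes in that fit (17.1% higher and 18.8% lower), and all 13 above were among them. Those added included Slc25a1, Slc25a3, Slc25a22, Slc25a25 and Slc25a26, all lower in knockdown cells, and Slc25a27, which was higher. With day 8 left out 8 were called, the calls of Slc25a15, Slc25a16, Slc25a23, Slc25a42 and Slc25a44 being lost. Without either knockdown library of day 6, 8 were called, and 10 were called with the libraries numbered 2 of days 4, 6 and 8 left out, all of them among the 13. Shares of all genes are not given for the fits that left libraries out, so their counts show stability only. The calls of Slc25a4, Slc25a5, Slc25a10, Slc25a14, Slc25a23, Slc25a24, Slc25a30 and Slc25a37 held in each of 20 fits that left out 1 library. Those of Slc25a15, Slc25a16, Slc25a40, Slc25a42 and Slc25a44 were lost in 12, 11, 4, 13 and 11 of these fits, with adjusted p up to 0.0878, 0.0913, 0.063, 0.0897 and 0.0888.

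**Figure D1:**
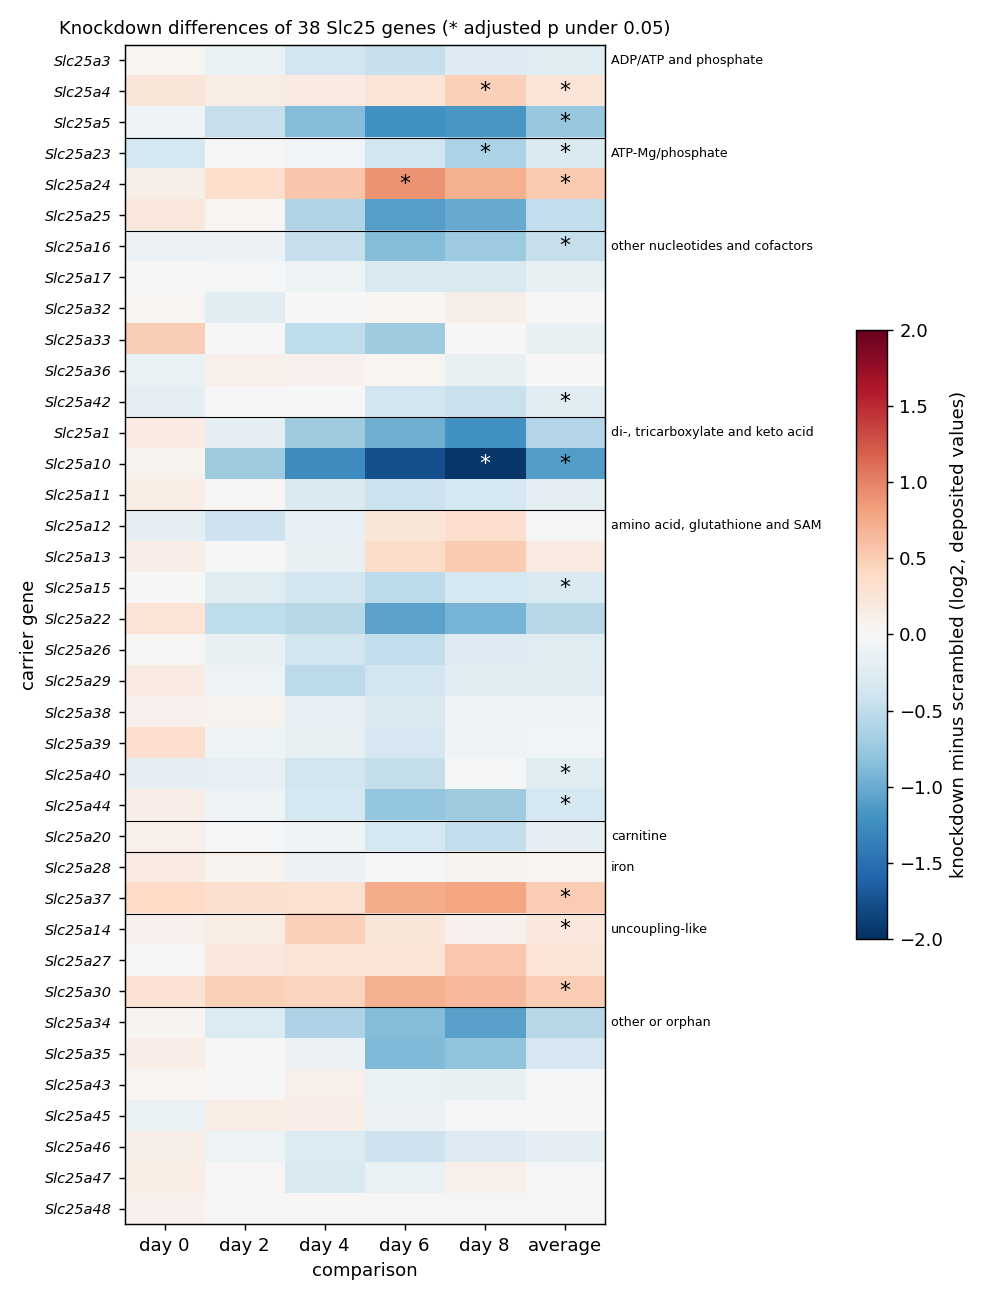
Knockdown minus scrambled log2 difference of 38 carriers (rows, grouped by role) at each day and averaged over days (columns), in deposited log2 units; red is higher and blue lower in knockdown cells, and asterisks mark limma adjusted p under 0.05. Calls at single days are 1 at day 6 and 3 at day 8, while the average column holds 13, and Slc25a10 has the darkest blue cell, at -1.95 at day 8.

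Single days held fewer calls than the average. No carrier was called at day 0, 2 or 4 (0.224%, 0.267% and 1.61% of all genes were called). Of all genes, 0.145%, 0.188% and 1.41% were called higher and 0.0788%, 0.0788% and 0.2% lower on these days. At an unadjusted p under 0.05 limma gave 1, 0 and 5 carriers. No share of all genes at that threshold is given, so these counts are not results about the carriers. At day 6 the test called 1 carrier, Slc25a24, which was higher (2.68% of all genes were higher, 1.44% lower and 4.12% either). At day 8 it called 3, Slc25a4 higher (3.39% of all genes) and Slc25a10 and Slc25a23 lower (2.35% of all genes), against 5.75% in either direction. The members' median differences at days 0, 2, 4, 6 and 8 were 0.091, -0.0098, -0.16, -0.38 and -0.21, where the median of all genes was between -0.0098 and 0.00074. Both knockdown libraries lay above both scrambled libraries for 16, 8, 7, 7 and 8 of 39 carriers at days 0, 2, 4, 6 and 8, against 18.9%, 20.7%, 19.7%, 28.5% and 23.9% of all genes. Both lay below for 4, 12, 12, 17 and 15 of 39 carriers, against 14.6%, 24.3%, 21.7%, 25.2% and 21.4% of all genes.

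Same-numbered libraries deviated together on every day, and a fit with that pairing called 1 carrier at day 4 (3.1% of all genes in that fit), 12 at day 6 (18%) and 14 at day 8 (17.1%). Of all genes, the paired fit called 9.29% higher and 8.7% lower at day 6, and 8.2% higher and 8.87% lower at day 8. The day 6 calls of the paired fit were Slc25a24, Slc25a30 and Slc25a37, higher, and Slc25a5, Slc25a10, Slc25a15, Slc25a16, Slc25a22, Slc25a25, Slc25a35, Slc25a40 and Slc25a44, lower. At day 8 the paired fit called Slc25a4, Slc25a13, Slc25a24, Slc25a27, Slc25a30 and Slc25a37 higher and Slc25a1, Slc25a5, Slc25a10, Slc25a22, Slc25a23, Slc25a25, Slc25a35 and Slc25a44 lower. The single-day counts rested on few libraries. Without scrambled library 1 of the same day they rose at days 6 and 8. When scrambled library 2, or either knockdown library, of the same day was left out, no carrier was called on either day. Leaving out a library of another day moved these counts to between 0 and 8, since all libraries share 1 estimate of the spread. In the authors' deposited table Slc25a10 was the most often called carrier, with an adjusted p under 0.05 and a lower level in knockdown cells at days 2, 4, 6 and 8. The authors' deposited table also called Slc25a22 lower at day 2, Slc25a5 and Slc25a25 lower at day 6, Slc25a24 higher at day 6, and no carrier at day 0. At single days the authors' deposited table called 0.655% to 3.66% of its genes lower and 0.973% to 2.7% higher.

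Per kilobase of exon, 2 carriers made up about as much transcript as all others together. Slc25a5 averaged 221 RPM per kilobase over the 20 libraries and Slc25a4 averaged 215, which were 25.8% and 25.01% of the summed family level. Next came Slc25a1 (62.9), the phosphate carrier Slc25a3 (60.6), the glutathione carrier Slc25a39 (52.8), the oxoglutarate carrier Slc25a11 (40.9) and Slc25a10 (38.3). At the other end, Slc25a34, Slc25a47, Slc25a43 and Slc25a48 averaged 0.543, 0.383, 0.244 and 0.12 RPM per kilobase. Neighbours in this order were not all apart: Slc25a5 ranged over libraries from 98.9 to 555 and Slc25a4 from 165 to 254. Slc25a48 and Slc25a43 were just inside the threshold on mean normalised count, with 13.2 and 15.2 in their highest table. Just outside it was Slc25a18, at 4.65, and the others left out were Slc25a2, Slc25a21, Slc25a31 and Slc25a41. A threshold of 10 was met in all 5 tables by 36 of the 39 carriers.

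The summed level of the 39 carriers was 2147 and 2345 RPM in knockdown cells at day 8, against 2247 and 3857 RPM in scrambled cells. At day 0 it was 2176 and 2087 RPM in knockdown cells and 2004 and 1893 RPM in scrambled cells. The highest sums were those of scrambled library 2 at days 4, 6 and 8, at 3375, 3973 and 3857 RPM. Slc25a3, Slc25a4 and Slc25a5 together held 53.9% to 61.5% of the per-kilobase sum in the 10 groups.

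The ADP/ATP carriers Slc25a4 and Slc25a5, paralogs that exchange matrix ATP for cytosolic ADP, differed in opposite directions. Slc25a4, the form dominant in heart and muscle, was higher in knockdown cells on average by 0.26 ± 0.055 on the log2 scale (SE, limma adjusted p = 0.00333). Knockdown Slc25a4 levels in RPM were 596 and 524 at day 0, 539 and 557 at day 2, 495 and 526 at day 4, 568 and 542 at day 6 and 597 and 593 at day 8. Scrambled Slc25a4 levels in RPM were 499 and 434 at day 0, 477 and 525 at day 2, 453 and 457 at day 4, 443 and 458 at day 6 and 434 and 389 at day 8. Both knockdown libraries were above both scrambled ones on each of the 5 days, by the smallest margin at day 2. At day 8 the difference was 0.48 ± 0.12 (limma adjusted p = 0.0369), and leaving out 1 library ended that call in 11 of 20 fits, with adjusted p up to 0.217.

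Slc25a5, the form of proliferating and many other cells, was lower in knockdown cells on average by a log2 difference of -0.76 ± 0.21 (SE, limma adjusted p = 0.015). Knockdown Slc25a5 levels in RPM were 206 and 163 at day 0, 238 and 259.9 at day 2, 267 and 311 at day 4, 267 and 321 at day 6 and 215 and 264 at day 8. Scrambled Slc25a5 levels in RPM were 212 and 175 at day 0, 312 and 391 at day 2, 411 and 676 at day 4, 481 and 914 at day 6 and 293 and 913 at day 8. The arms overlapped at day 0 and were apart from day 2 on, and scrambled library 2 was the highest of its day from day 2 to day 8. The differences at days 4, 6 and 8 were -0.86, -1.21 and -1.16 (limma adjusted p 0.554, 0.145 and 0.153). With pairing by number the day 6 and day 8 differences had adjusted p of 0.0402 and 0.0454. Without the late libraries numbered 2 the average difference was -0.42 (limma adjusted p = 0.0148).

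The phosphate carrier Slc25a3, which supplies the phosphate for ATP synthesis, was not called in any comparison of all libraries without pairing. Knockdown Slc25a3 levels in RPM were 270.4 and 289 at day 0, 345 and 419 at day 2, 265 and 332 at day 4, 268 and 331 at day 6 and 269 and 289 at day 8. Scrambled Slc25a3 levels in RPM were 265 and 270.0 at day 0, 365 and 482 at day 2, 298 and 491 at day 4, 317 and 499.8 at day 6 and 265 and 395 at day 8. Its average difference was -0.23 ± 0.13 (SE, limma adjusted p = 0.179), and scrambled library 2 held the highest level of each day from day 2 on. Without the late libraries numbered 2, its change to day 2 in scrambled cells was called (0.72, limma adjusted p = 0.0179).

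The ratio of Slc25a5 to Slc25a4, both per kilobase, was computed in each library after their values had been seen and is given as a description. In knockdown cells it was 0.494 and 0.444 at day 0, 0.631 and 0.667 at day 2, 0.772 and 0.846 at day 4, 0.673 and 0.848 at day 6 and 0.515 and 0.637 at day 8. In scrambled cells it was 0.606 and 0.576 at day 0, 0.934 and 1.06 at day 2, 1.3 and 2.11 at day 4, 1.55 and 2.85 at day 6 and 0.964 and 3.36 at day 8. Slc25a4 thus stayed the more abundant of the pair in all 10 knockdown libraries, while Slc25a5 exceeded it in 6 of 10 scrambled libraries. Reads shared by close paralogs and by processed copies of these genes can be split or dropped by a counter that the sources used here do not name, so the ratio is uncertain in level.

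**Figure D2:**
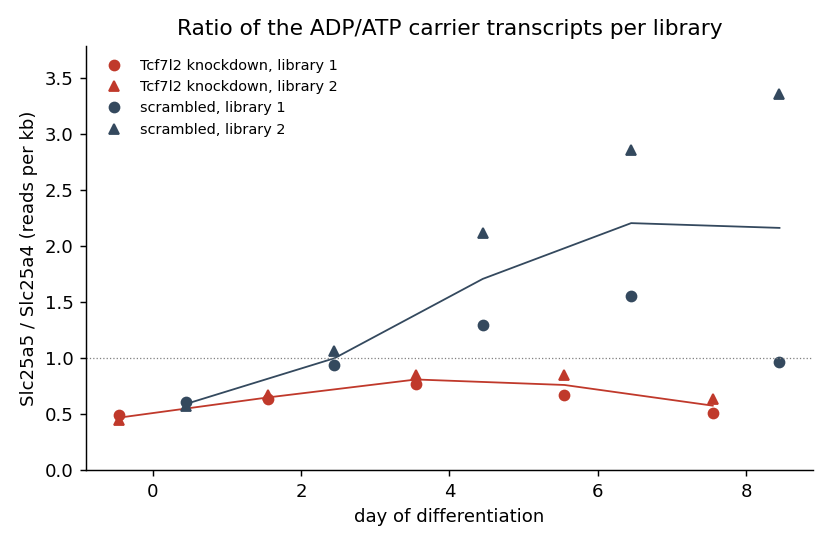
Ratio of Slc25a5 to Slc25a4 reads per kilobase of exon (vertical axis) by day of differentiation (horizontal axis), each library a point and each line a group mean, knockdown in red and scrambled in dark blue. All knockdown libraries lie between 0.444 and 0.848, and scrambled library 2 reaches 3.36 at day 8 with library 1 at 0.964.

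The carriers of di- and tricarboxylates included the largest difference of the family. Slc25a10, the dicarboxylate carrier, which is abundant in white fat, was lower in knockdown cells by -1.12 ± 0.26 on average (log2, SE, limma adjusted p = 0.00538). Knockdown Slc25a10 levels in RPM were 28.7 and 24.8 at day 0, 42.2 and 34.6 at day 2, 69.8 and 89.1 at day 4, 86.2 and 115 at day 6 and 64.8 and 97.8 at day 8. Scrambled Slc25a10 levels in RPM were 24.4 and 25.3 at day 0, 65.4 and 71.7 at day 2, 134 and 279 at day 4, 268 and 418 at day 6 and 169 and 542 at day 8. The arms overlapped at day 0 and were apart from day 2 to day 8. At day 8 knockdown cells averaged 81.3 ± 23.3 RPM and scrambled cells 355 ± 263 RPM (SD, n = 2 each), so the knockdown mean was 22.9% of the scrambled one. Log2 differences at days 2, 4, 6 and 8 were -0.71, -1.26, -1.76 and -1.95 (limma adjusted p 1, 0.348, 0.0584 and 0.0335). Without scrambled library 2 of day 8 the day 8 difference was -1.04 and no longer called. Without all late libraries numbered 2, which leaves a lone library per arm at day 8, it was -1.33. Without those the average difference was -0.73 (limma adjusted p = 0.0157).

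Slc25a1, the citrate carrier, did not pass the test between the hairpins without pairing. Knockdown Slc25a1 levels in RPM were 65.2 and 59.3 at day 0, 72.7 and 75.8 at day 2, 80.4 and 125 at day 4, 106 and 149 at day 6 and 101 and 131 at day 8. Scrambled Slc25a1 levels in RPM were 57.6 and 51.2 at day 0, 77.6 and 97.96 at day 2, 100.1 and 272 at day 4, 176 and 337 at day 6 and 156 and 432 at day 8. At day 0 both knockdown libraries were higher, at day 4 the arms overlapped, and at days 2, 6 and 8 both knockdown libraries were lower. The average difference was -0.59 ± 0.24 (SE, limma adjusted p = 0.0764), and with pairing the adjusted p was 0.0276.

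Slc25a11 is the oxoglutarate-malate carrier of the malate-aspartate shuttle. Knockdown Slc25a11 levels in RPM were 84.2 and 74.5 at day 0, 81.2 and 83.3 at day 2, 72.05 and 83.2 at day 4, 77.01 and 89.8 at day 6 and 79.98 and 79.3 at day 8. Scrambled Slc25a11 levels in RPM were 71.2 and 68.7 at day 0, 77.3 and 86.9 at day 2, 71.9 and 125 at day 4, 87.3 and 138 at day 6 and 78.8 and 123 at day 8. Scrambled library 2 of days 4, 6 and 8 stood above the other libraries, and the average difference of -0.18 ± 0.12 was not called (SE, limma adjusted p = 0.302).

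**Figure D3:**
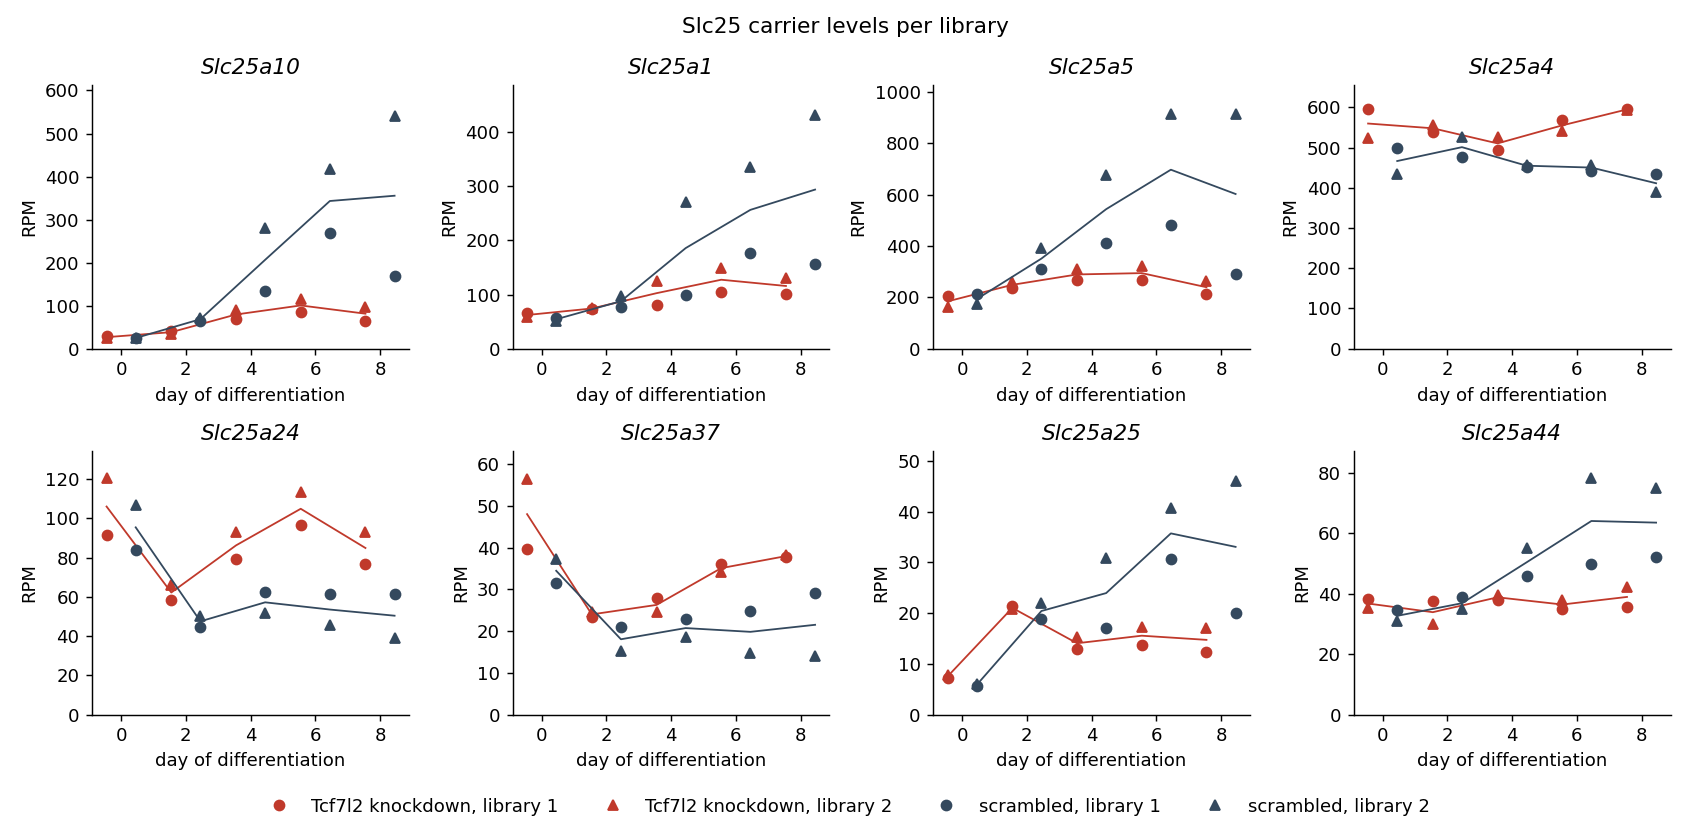
Level of 8 carriers in RPM (vertical axes, from 0) by day of differentiation (horizontal axes), each library a point and each line a group mean, knockdown in red and scrambled in dark blue. Slc25a10, Slc25a1, Slc25a5, Slc25a25 and Slc25a44 are higher in the late scrambled libraries, most of all library 2, while Slc25a4, Slc25a24 and Slc25a37 are higher in the late knockdown libraries.

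The stretches just upstream of the start sites of these 4 carriers are shown because the ADP/ATP paralogs moved apart and because the citrate and dicarboxylate carriers both lay under the scrambled libraries at days 6 and 8. Each is the 250 bases before the RefSeq start site on GRCm38.p6, written on the gene's strand, with matches to the motifs below in capitals on either strand.
Slc25a4, chr8:46211063-46211312, minus strand: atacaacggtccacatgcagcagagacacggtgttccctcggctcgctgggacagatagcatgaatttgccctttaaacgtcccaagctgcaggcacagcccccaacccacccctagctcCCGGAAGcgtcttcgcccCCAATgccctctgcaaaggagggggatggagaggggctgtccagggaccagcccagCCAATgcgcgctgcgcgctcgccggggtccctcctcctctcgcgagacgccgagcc
Slc25a5, chrX:36795347-36795596, plus strand: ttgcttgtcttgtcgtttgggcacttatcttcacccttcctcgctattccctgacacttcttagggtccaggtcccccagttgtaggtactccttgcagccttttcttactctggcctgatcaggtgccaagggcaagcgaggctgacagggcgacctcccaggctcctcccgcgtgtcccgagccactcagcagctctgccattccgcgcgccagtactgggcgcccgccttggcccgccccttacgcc
Slc25a10, chr11:120491587-120491836, plus strand: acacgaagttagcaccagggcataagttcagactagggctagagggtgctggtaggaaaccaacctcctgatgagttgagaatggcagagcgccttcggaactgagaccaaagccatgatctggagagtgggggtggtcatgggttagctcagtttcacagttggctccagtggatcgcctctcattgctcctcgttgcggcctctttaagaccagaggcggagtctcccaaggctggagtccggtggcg
Slc25a1, chr16:17928220-17928469, minus strand: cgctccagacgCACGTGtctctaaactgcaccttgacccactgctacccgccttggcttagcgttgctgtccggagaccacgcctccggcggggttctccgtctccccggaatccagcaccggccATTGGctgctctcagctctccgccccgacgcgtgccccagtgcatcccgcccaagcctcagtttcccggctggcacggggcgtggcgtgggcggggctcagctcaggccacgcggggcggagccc
The Slc25a4 window held 1 GABP match at -130 and CCAAT boxes at -112 and -56, and the Slc25a1 window held an E-box at -239 and a reversed CCAAT box at -125, none of them overlapping. The letters searched were not in the Slc25a5 and Slc25a10 windows, which says nothing about any factor there.

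Such windows were found in RefSeq for 31 of the 39 carriers and for 27025 genes in all. The Tcf/Lef letters CTTTGAT, read on both strands as were the others, were in 3 of 31 carrier windows (Slc25a22, Slc25a28 and Slc25a43; 9.68%), against 3.72% of all windows. The GABP letters CCGGAAG were in 16.1% of carrier windows against 7.83% of all, CCAAT in 51.6% against 37.5%, the E-box CACGTG in 19.4% against 6.86%, and the NRF1 letters (GCGCA, any base, then GCGC) in 3.23% against 4.23%. These shares are descriptions of letters in a window.

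The ATP-Mg/phosphate carriers, which exchange ATP-Mg for phosphate under the control of calcium and so set the adenine nucleotide pool of the matrix, split in direction. Slc25a24 was higher in knockdown cells on average by 0.53 ± 0.10 (log2, SE, limma adjusted p = 0.00156). Knockdown Slc25a24 levels in RPM were 91.7 and 120.4 at day 0, 58.6 and 65.9 at day 2, 79.5 and 93.01 at day 4, 96.5 and 113 at day 6 and 76.8 and 93.1 at day 8. Scrambled Slc25a24 levels in RPM were 84.1 and 107 at day 0, 44.9 and 50.2 at day 2, 62.6 and 51.8 at day 4, 61.6 and 45.5 at day 6 and 61.5 and 39.3 at day 8. The arms overlapped at day 0 and were apart on each later day. The day 6 difference was 0.90 ± 0.20 (limma adjusted p = 0.025), and leaving out scrambled library 2 of day 6 gave 0.75 ± 0.24 (limma adjusted p = 0.259). Leaving out either knockdown library of day 6 also ended that call (adjusted p = 0.096 and 0.181), while none of these ended the call of the average effect. Without the late libraries numbered 2 the average difference of Slc25a24 was 0.32 (limma adjusted p = 0.0236).

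Slc25a23 was lower in knockdown cells on average by a log2 difference of -0.29 ± 0.085 (SE, limma adjusted p = 0.0214). Knockdown Slc25a23 levels in RPM were 2.75 and 3.29 at day 0, 1.57 and 1.62 at day 2, 3.24 and 3.37 at day 4, 3.90 and 3.88 at day 6 and 4.32 and 3.80 at day 8. Scrambled Slc25a23 levels in RPM were 4.12 and 5.26 at day 0, 1.76 and 1.53 at day 2, 3.89 and 3.19 at day 4, 5.20 and 6.09 at day 6 and 5.69 and 8.80 at day 8. It was at 8.80 RPM or less in every library, and the arms were apart at days 0, 6 and 8. With day 8 left out its average difference was -0.20 and no longer called (limma adjusted p = 0.064). Its day 8 call (-0.63 ± 0.16, limma adjusted p = 0.041) was lost in 15 of 20 fits without 1 library, with adjusted p up to 0.401.

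Slc25a25 was not called on average (-0.49 ± 0.19, SE, limma adjusted p = 0.061). Knockdown Slc25a25 levels in RPM were 7.21 and 7.84 at day 0, 21.4 and 20.7 at day 2, 12.9 and 15.3 at day 4, 13.8 and 17.3 at day 6 and 12.3 and 17.2 at day 8. Scrambled Slc25a25 levels in RPM were 5.66 and 6.07 at day 0, 18.9 and 21.99 at day 2, 17.1 and 30.8 at day 4, 30.7 and 40.7 at day 6 and 20.02 and 46.1 at day 8. From day 4 on both knockdown libraries were lower than both scrambled ones, and with pairing the day 6 and day 8 differences of -1.10 and -1.01 had limma adjusted p of 0.0171 and 0.0182.

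Among the 2 mitoferrins, which bring iron into the matrix for haem and iron-sulphur cluster synthesis, Slc25a37 was higher in knockdown cells on average by 0.51 ± 0.11 (log2, SE, limma adjusted p = 0.00326). Knockdown Slc25a37 levels in RPM were 39.6 and 56.3 at day 0, 23.5 and 24.5 at day 2, 27.9 and 24.6 at day 4, 35.97 and 34.2 at day 6 and 37.6 and 38.3 at day 8. Scrambled Slc25a37 levels in RPM were 31.6 and 37.3 at day 0, 20.9 and 15.2 at day 2, 22.9 and 18.6 at day 4, 24.9 and 14.7 at day 6 and 29.1 and 13.9 at day 8. The knockdown libraries were above the scrambled ones on every day. Slc25a28, the widely expressed mitoferrin, did not pass the test (0.032 ± 0.062, SE, limma adjusted p = 0.734). Knockdown Slc25a28 levels in RPM were 13.7 and 14.6 at day 0, 12.8 and 13.4 at day 2, 14.4 and 13.4 at day 4, 14.1 and 14.5 at day 6 and 13.7 and 17.4 at day 8. Scrambled Slc25a28 levels in RPM were 13.0003 and 11.1 at day 0, 12.3 and 12.04 at day 2, 13.2 and 17.6 at day 4, 13.5 and 15.3 at day 6 and 13.5 and 14.7 at day 8. Its arms overlapped from day 4 on.

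The uncoupling-like carriers Slc25a14, Slc25a27 and Slc25a30, named for their likeness to the uncoupling proteins, all had positive average differences. The test called 2 of the 3 higher, against 12.3% of all genes. Slc25a30 was higher in knockdown cells by 0.51 ± 0.10 (log2, SE, limma adjusted p = 0.00232). Knockdown Slc25a30 levels in RPM were 22.5 and 16.4 at day 0, 26.7 and 23.0004 at day 2, 17.99 and 15.2 at day 4, 14.98 and 13.9 at day 6 and 16.6 and 13.9 at day 8. Scrambled Slc25a30 levels in RPM were 16.3 and 13.6 at day 0, 18.003 and 14.2 at day 2, 14.8 and 8.49 at day 4, 10.1 and 5.65 at day 6 and 12.1 and 6.06 at day 8. Both knockdown libraries lay above both scrambled ones on every day. Slc25a14 was higher by 0.21 ± 0.059 (limma adjusted p = 0.0169). Knockdown Slc25a14 levels in RPM were 8.09 and 6.68 at day 0, 5.20 and 4.30 at day 2, 5.94 and 5.91 at day 4, 5.45 and 5.68 at day 6 and 4.84 and 4.38 at day 8. Scrambled Slc25a14 levels in RPM were 7.69 and 5.60 at day 0, 3.95 and 3.71 at day 2, 3.85 and 3.16 at day 4, 4.56 and 3.81 at day 6 and 4.76 and 3.46 at day 8. Its arms were apart at days 2, 4 and 6. Its call was lost without the late libraries numbered 2 (0.15 ± 0.064, limma adjusted p = 0.126). Slc25a27 had a difference of 0.26 ± 0.10 and a limma adjusted p of 0.0563, and with pairing that p was 0.0118.

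Of 7 carriers of other nucleotides and cofactors, 2 were lower in knockdown cells on average and none was higher, against 13.2% and 12.3% of all genes. Slc25a16, tied to coenzyme A transport, was lower by a log2 difference of -0.46 ± 0.16 (SE, limma adjusted p = 0.0448). Knockdown Slc25a16 levels in RPM were 20.996 and 20.6 at day 0, 23.4 and 24.2 at day 2, 23.4 and 26.3 at day 4, 22.4 and 26.8 at day 6 and 22.5 and 29.3 at day 8. Scrambled Slc25a16 levels in RPM were 22.7 and 22.4 at day 0, 25.5 and 27.8 at day 2, 29.8 and 41.5 at day 4, 32.8 and 62.8 at day 6 and 27.5 and 65.4 at day 8. Both knockdown libraries were below both scrambled ones from day 0 to day 6, and the arms overlapped at day 8. The coenzyme A carrier Slc25a42 was lower by -0.20 ± 0.072 (limma adjusted p = 0.0465). The folate and flavin carrier Slc25a32 had 0.00087 ± 0.052 and was not called (limma adjusted p = 0.992).

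Of 10 amino acid, glutathione and S-adenosylmethionine carriers kept, 3 were lower on average and none was higher, against 13.2% and 12.3% of all genes. The branched-chain amino acid carrier Slc25a44 was lower in knockdown cells by a log2 difference of -0.36 ± 0.12 (SE, limma adjusted p = 0.0428). Knockdown Slc25a44 levels in RPM were 38.3 and 35.3 at day 0, 37.7 and 30.2 at day 2, 37.9 and 39.8 at day 4, 34.9 and 38.1 at day 6 and 35.7 and 42.2 at day 8. Scrambled Slc25a44 levels in RPM were 34.5 and 30.9 at day 0, 38.9 and 34.9 at day 2, 45.8 and 55.1 at day 4, 49.8 and 78.5 at day 6 and 52.2 and 75.03 at day 8. Knockdown levels stayed within 30.2 to 42.2 RPM, while the scrambled libraries of days 6 and 8 were at 49.8 RPM or above. The ornithine carrier Slc25a15 (-0.30 ± 0.10) and the glutathione carrier Slc25a40 (-0.25 ± 0.077) were the others called, with limma adjusted p of 0.0427 and 0.0289. Knockdown Slc25a15 levels in RPM were 17.8 and 16.5 at day 0, 16.7 and 16.4 at day 2, 18.8 and 19.8 at day 4, 16.8 and 18.4 at day 6 and 15.8 and 21.7 at day 8. Scrambled Slc25a15 levels in RPM were 17.1 and 16.8 at day 0, 21.8 and 20.7 at day 2, 22.5 and 29.2 at day 4, 20.9 and 31.6 at day 6 and 18.4 and 30.1 at day 8. The arms of Slc25a15 were apart from day 2 to day 6. Slc25a39, the close relative of Slc25a40, differed by -0.06 ± 0.13 and was not called (limma adjusted p = 0.753). The glutamate carrier Slc25a22 had -0.56 ± 0.22 (limma adjusted p = 0.069), with 95.4 RPM in scrambled library 2 of day 8 and 36.2 RPM in library 1.

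The aspartate-glutamate carriers, the calcium-regulated step of the malate-aspartate shuttle, did not pass the test on average. Knockdown Slc25a12 levels in RPM were 82.2 and 65.9 at day 0, 84.5 and 73.3 at day 2, 88.5 and 82.4 at day 4, 71.9 and 65.5 at day 6 and 66.8 and 71.1 at day 8. Scrambled Slc25a12 levels in RPM were 96.5 and 73.1 at day 0, 117 and 101 at day 2, 107 and 85.6 at day 4, 66.4 and 46.9 at day 6 and 71.9 and 37.6 at day 8. Slc25a12 was lower in knockdown libraries at day 2 and its arms overlapped at day 8, and its average difference was -0.036 ± 0.11 (SE, limma adjusted p = 0.822). Slc25a13 had 0.18 ± 0.084 (limma adjusted p = 0.124). Knockdown Slc25a13 levels in RPM were 18.6 and 20.99 at day 0, 7.19 and 8.94 at day 2, 8.52 and 10.6 at day 4, 13.7 and 14.8 at day 6 and 12.9 and 15.5 at day 8. Scrambled Slc25a13 levels in RPM were 19.1 and 15.8 at day 0, 7.13 and 8.95 at day 2, 9.29 and 12.7 at day 4, 9.68 and 10.3 at day 6 and 9.91 and 7.83 at day 8. At days 6 and 8 both knockdown libraries were above both scrambled ones, and with pairing the day 8 difference of 0.53 had a limma adjusted p of 0.0255.

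The carnitine-acylcarnitine carrier Slc25a20, which admits fatty acids for oxidation, had knockdown levels in RPM of 14.6 and 13.2 at day 0, 15.04 and 15.5 at day 2, 14.1 and 15.3 at day 4, 16.999 and 16.8 at day 6 and 16.1 and 16.5 at day 8. Scrambled Slc25a20 levels in RPM were 12.8 and 12.2 at day 0, 14.5 and 17.4 at day 2, 13.4 and 18.3 at day 4, 15.5 and 30.3 at day 6 and 17.2 and 30.4 at day 8. Scrambled library 2 of days 6 and 8 stood alone at 30.3 and 30.4 RPM, and the average difference of -0.17 ± 0.12 was not called (SE, limma adjusted p = 0.315). None of the 7 carriers with an unsettled substrate was called on average, against 25.4% of all genes, and 2 of their 7 differences were positive. Slc25a35 is uncertain in level, since Rangrf on the other strand overlaps 31.3% of its exons and the library kit named in the labels does not mark strand. The same holds for Slc25a33, of whose exons Gm13068 overlaps 14.9%.

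On all 5 days the knockdown mean was above the scrambled mean for 6 of 39 carriers (18.3% of all genes), Slc25a4, Slc25a14, Slc25a24, Slc25a27, Slc25a30 and Slc25a37. It was below on all 5 days for Slc25a5, Slc25a16 and Slc25a23, 3 of 39, against 15% of all genes.

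How the carriers moved during differentiation was tested on recovered reads placed on 1 scale over the 20 libraries (limma voom). In scrambled cells 12 of 39 carriers changed by day 2 relative to day 0, against 24.7% of all genes. The 5 that rose (11.1% of all genes) were Slc25a25, Slc25a10, Slc25a29, Slc25a32 and the peroxisomal cofactor carrier Slc25a17, by 1.88, 1.55, 1.48, 0.94 and 0.72 on the log2 scale. The 7 that fell (13.6% of all genes) were Slc25a27, Slc25a23, Slc25a13, Slc25a24, Slc25a37, Slc25a14 and Slc25a36, with log2 changes of -2.04, -1.44, -1.001, -0.91, -0.88, -0.67 and -0.59. Limma adjusted p ranged from 0.000327 for Slc25a32 to 0.0475 for Slc25a36. The calls of Slc25a36 and Slc25a17 were lost in 15 and 7 of 20 fits that left out 1 library. Those of Slc25a13, Slc25a29 and Slc25a32 held in each, and the others were lost in 1 to 4. Without the count filter Slc25a10, Slc25a17 and Slc25a36 were not called. Quantile normalization lost Slc25a14 and Slc25a17, and scaling to total reads lost Slc25a17. The count of called carriers was 4 to 13 without any 1 library: 4 without scrambled library 2 of day 2, and 6 without scrambled library 1 of day 2 or library 2 of day 0. With pairing by number it was 16, against 36% of all genes in that fit, with Slc25a3, Slc25a12, Slc25a40 and Slc25a47 added. Both scrambled libraries of day 2 lay above both of day 0 for 20 of 39 carriers (28% of all genes) and below them for 10 (37.5%).

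In knockdown cells 5 of 39 changed by day 2, against 15.4% of all genes, and each was also called in scrambled cells in the same direction. Slc25a25, Slc25a29 and Slc25a32 rose by 1.62, 1.16 and 0.65 (6.76% of all genes rose), and Slc25a13 and Slc25a37 had changes of -1.16 and -0.84 (8.61% of all genes fell). The call of Slc25a37 was lost in 15 of 20 fits that left out 1 library, and also without the count filter and with quantile normalization. Those of Slc25a25, Slc25a29, Slc25a32 and Slc25a13 were lost in 4, 2, 1 and 0 of these 20 fits. With pairing by number 12 were called, 7 higher and 5 lower, against 24.8% of all genes in that fit (11.8% higher and 13% lower). The count was 1 and 3 without knockdown library 1 and 2 of day 2, 2 without knockdown library 2 of day 0, and 8 without either scrambled library of day 8. The knockdown libraries of day 2 lay above those of day 0 for 13 carriers (22.1% of all genes) and below them for 13 (37.9%).

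Slc25a29, a carrier of basic amino acids, had its highest mean at day 2 in knockdown cells and at day 4 in scrambled cells, and Slc25a32 had it at day 2 in both arms. Knockdown Slc25a29 levels in RPM were 12.9 and 8.36 at day 0, 24.002 and 18.2 at day 2, 16.4 and 17.7 at day 4, 11.9 and 9.91 at day 6 and 9.73 and 9.06 at day 8. Scrambled Slc25a29 levels in RPM were 9.23 and 8.44 at day 0, 25.1 and 21.5 at day 2, 23.7 and 28.1 at day 4, 12.6 and 16.7 at day 6 and 10.5 and 11.1 at day 8. By day 8 both arms were back within 9.06 to 11.1 RPM, and at days 4, 6 and 8 both knockdown libraries were below both scrambled ones. Knockdown Slc25a32 levels in RPM were 19.04 and 21.4 at day 0, 31.01 and 26.9 at day 2, 23.4 and 23.3 at day 4, 21.7 and 19.4 at day 6 and 21.001 and 18.4 at day 8. Scrambled Slc25a32 levels in RPM were 18.5 and 20.01 at day 0, 38.5 and 32.1 at day 2, 21.9 and 24.2 at day 4, 20.8 and 17.8 at day 6 and 17.6 and 16.9 at day 8. The day 2 libraries of both arms were above all others of Slc25a32.

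Slc25a27 and Slc25a17 moved early in opposite directions. Knockdown Slc25a27 levels in RPM were 5.06 and 7.74 at day 0, 2.93 and 2.17 at day 2, 3.24 and 2.75 at day 4, 5.49 and 3.91 at day 6 and 5.03 and 3.90 at day 8. Scrambled Slc25a27 levels in RPM were 5.81 and 6.32 at day 0, 2.49 and 0.854 at day 2, 2.68 and 1.58 at day 4, 4.82 and 2.31 at day 6 and 3.25 and 1.73 at day 8. Its lowest scrambled value, 0.854 RPM, was at day 2. Knockdown Slc25a17 levels in RPM were 66.3 and 49.4 at day 0, 94.3 and 73.6 at day 2, 75.7 and 60.1 at day 4, 52.4 and 50.6 at day 6 and 46.99 and 43.998 at day 8. Scrambled Slc25a17 levels in RPM were 67.04 and 47.5 at day 0, 101 and 75.2 at day 2, 81.5 and 64.9 at day 4, 61.3 and 63.5 at day 6 and 47.6 and 63.3 at day 8. The day 2 means of Slc25a17 were the highest of both arms, and its knockdown change to day 2 was 0.68 with a limma adjusted p of 0.0654.

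By day 8 relative to day 0, 6 of 39 carriers had changed in scrambled cells, against 10.5% of all genes. Slc25a10, Slc25a25, Slc25a1 and Slc25a44 rose by 3.65 ± 0.49, 2.41 ± 0.46, 2.30 ± 0.51 and 0.99 ± 0.25 (log2, SE; 5.54% of all genes rose). Slc25a13 and Slc25a24 fell, with changes of -0.92 ± 0.21 and -0.90 ± 0.21 (4.93% of all genes fell), and limma adjusted p for the 6 ranged from 0.00171 to 0.0265. Slc25a10 averaged 355 RPM in scrambled cells at day 8, against 24.8 RPM at day 0. The count of called carriers fell without scrambled library 2 of day 8 and rose without scrambled library 1 of day 8. It also fell without either scrambled library of day 0. The count was 10 without either scrambled library of day 6, and 18 when libraries were paired by number (27.5% of all genes in that fit). Without the late libraries numbered 2, which leaves a lone scrambled library at day 8, the rises of Slc25a10, Slc25a25 and Slc25a1 were 2.74, 1.73 and 1.49. In that fit the changes of Slc25a44, Slc25a13 and Slc25a24 were 0.65, -0.82 and -0.64. The call of Slc25a10 held in each of 20 fits that left out 1 library. Those of Slc25a1, Slc25a13, Slc25a24, Slc25a25 and Slc25a44 were lost in 3, 2, 3, 3 and 3 of these fits.

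In knockdown cells no carrier was called between day 8 and day 0 (0.673% of all genes were), and 4 had an unadjusted limma p under 0.05. The changes of Slc25a10, Slc25a25 and Slc25a1 were 1.60 ± 0.46, 1.00 ± 0.46 and 0.91 ± 0.49 (SE, limma adjusted p 0.166, 0.454 and 0.558). With pairing by number 2 carriers were called (2.79% of all genes in that fit). Both libraries of day 8 lay above both of day 0 for 14 carriers in knockdown cells (21% of all genes) and for 19 in scrambled cells (25.1%), and below them for 7 (21.4%) and 10 (26.3%). The difference between the arms in this change was itself tested, and no carrier was called (0% of all genes), with 3 at an unadjusted limma p under 0.05. No share of all genes at that unadjusted threshold is given, so the counts of 4 and 3 are not results about the carriers. For Slc25a10 the difference between the arms, from limma voom on recovered reads, was -2.05 ± 0.68 (unadjusted p = 0.00968, limma adjusted p = 0.835). A negative value was found for 29 of 39 carriers, with a median of -0.357, against 0.0229 over all genes tested. The change over differentiation was thus not shown to differ between the arms for any single carrier.

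**Figure D4:**
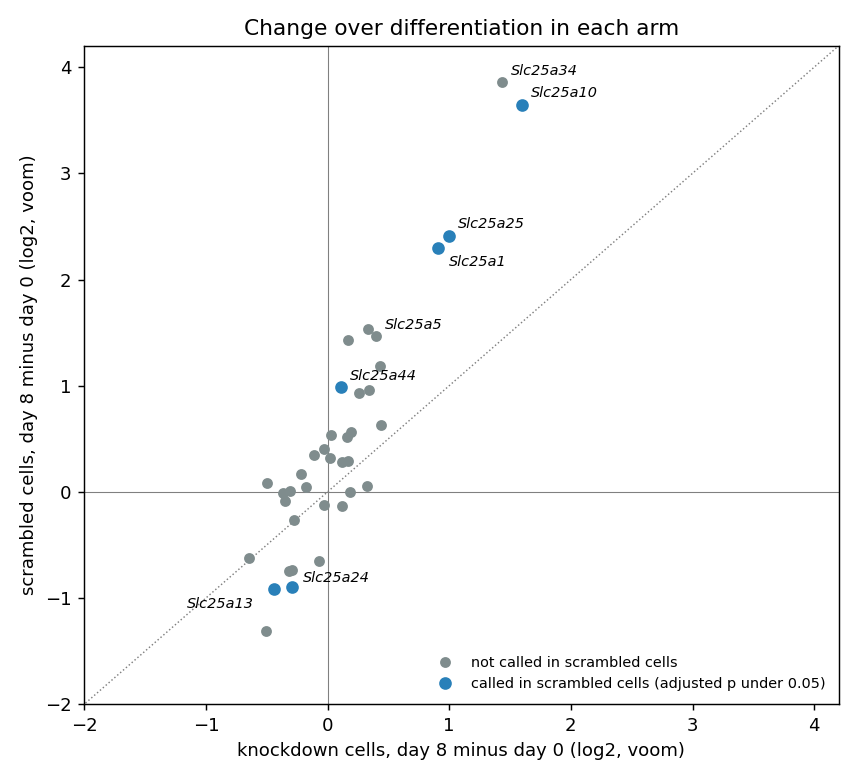
Change from day 0 to day 8 of 38 carriers in knockdown cells (horizontal axis) and in scrambled cells (vertical axis), in log2 units from limma voom; blue points passed the test in scrambled cells and the dotted line marks equal change. Slc25a10 is at 1.60 and 3.65, and no carrier passed the test in knockdown cells.

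Genes that work with the carriers were read from lists chosen with earlier results known, and their counts stand against 13.2% of all genes called lower on average and 12.3% called higher. Of the 6 tested partners of pyruvate entry and citrate export, 4 were lower in knockdown cells on average: the pyruvate carrier subunits Brp44 (-0.83 ± 0.19) and Brp44l (-0.73 ± 0.18), pyruvate carboxylase Pcx (-1.58 ± 0.27) and citrate synthase Cs (-0.66 ± 0.22). Their limma adjusted p ran from 0.000509 to 0.0367, and ATP-citrate lyase Acly (-0.11 ± 0.11) and malic enzyme Me1 (-0.39 ± 0.19) were not called. Of 4 malate-aspartate shuttle enzymes the malate dehydrogenases Mdh1 (-0.81 ± 0.24) and Mdh2 (-0.70 ± 0.21) were lower and the transaminases Got1 and Got2 were not called. Of 4 tested carnitine shuttle enzymes Cpt2 (-0.91 ± 0.20) and Crat (-0.77 ± 0.25) were lower.

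Of 6 carrier import genes tested, Timm9 (-0.41 ± 0.13, limma adjusted p = 0.0249) was called lower on average. All 6 average differences were negative, while at day 0 all 6 were positive. No share of all genes by sign is given beside these counts. None of the 3 outer membrane channels Vdac1, Vdac2 and Vdac3 was called, with a median of -0.11. Among family members under other symbols, Ucp2 was lower in knockdown cells by -0.69 ± 0.13 (limma adjusted p = 0.00114), at 48.8 and 78.7 RPM at day 8, against 85.8 and 144 RPM in scrambled cells. Mtch2 (-0.39 ± 0.16, limma adjusted p = 0.0774), Ucp3 and Mtch1 were not called.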

How the data were processed

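The authors deposited 1 table per day, whose log2 values were variance-stabilised and normalised within that table. As deposited, each also holds a mean signal per gene (normalised counts averaged over its libraries), a log2 fold change, a test score and p-values with adjusted p-values. The submitters' processing notes name the mm9 build, TopHat2 2.0.13, Bowtie2 2.2.3.0, SAMtools and DESeq2 1.10.1. The read counter and annotation are not given in the sources used here. No per-library column was left unused (0).

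The transformation was inverted to recover reads: 100% of values up to 100 reads lay within 0.02 reads of a whole number. The value of a gene with 0 reads was 5.00 to 6.94 between tables, which compresses low genes. Knockdown differences came from limma (version 3.58.1 with statmod 1.5.0 in R 4.3.3, trend and robust estimation) on the deposited log2 values, and changes over days with limma voom on recovered reads scaled by median-of-ratios size factors over 20 libraries. P-values were adjusted by Benjamini-Hochberg over 16497 genes, those whose mean normalised count reached 10 in any of the tables, and called at 0.05. The average effect has hairpin and day as factors and counts libraries of an arm as independent.

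Within each day, libraries with the same number deviated together: the correlation of their deviations was 0.783, 0.702, 0.551, 0.537 and 0.468 at days 0, 2, 4, 6 and 8. Pairing of the knockdown differences rests on this alone, as no label mentions a shared culture. For changes over days the block was an offset by library number shared by all days. The deviations at day 0 correlated with those at day 2 by 0.271 in scrambled and 0.256 in knockdown cells. With those at day 8 the correlations were 0.0327 and 0.174, so paired counts of changes over days have little ground in the data. The fits without the pair block are the ones given unless the block is named.

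The carriers, gene lists and values named were chosen with earlier results of these data known. Values in every library were given for 12 carriers named in that choice and for up to 6 called carriers per direction and comparison. Of the 39, 1 carrier is counted but not reported here by itself. Levels per kilobase used union exon lengths of GENCODE M21 on GRCm38, matched by gene ID for 39 of 39 carriers, although the notes name mm9. Promoters came from RefSeq on GRCm38.p6. The scripts were tested on simulated data. Alternatives were no filter, a minimum of 50, the replicate block, no robust estimation, median centring and quantile normalization. Others were recovered reads, 1 table alone, scaling to total reads for changes over days, and leaving out each library. Leaving out late libraries numbered 2 or day 8, and recovered reads with the block, were chosen after seeing the data.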

Additional observations from a re-analysis of the deposited data

How the results depend on the processing

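No carrier's called difference changed direction under any alternative run. With the replicate block, 20 carriers were called in the average knockdown effect, 1 at day 4, 12 at day 6 and 14 at day 8, then 18 in scrambled cells between day 8 and day 0, 12 in knockdown cells between day 2 and day 0, and 2 in knockdown cells between day 8 and day 0. The block left the counts of 0 at days 0 and 2 as they were. Recovered reads with the block gave 22 for the average, 2 at day 4, 13 at day 6 and 15 at day 8. A fit to 1 table alone gave 0 at days 6 and 8, and quantile normalization gave 2 at day 6. Without the count filter the average calls of Slc25a15, Slc25a16, Slc25a42 and Slc25a44 were lost (limma adjusted p 0.0573, 0.0574, 0.0673 and 0.0561). That of Slc25a42 was also lost with median centring, quantile normalization and recovered reads. Quantile normalization and recovered reads each ended the day 8 call of Slc25a23 (limma adjusted p 0.0564 and 0.0735). With the libraries numbered 2 of days 4, 6 and 8 left out, counts were 2 at day 6, 1 at day 8, 3 in scrambled cells and 1 in knockdown cells between day 8 and day 0. In these fits a lone library was assumed to vary like the other groups. With day 8 left out the average effect held 8.

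Leaving out 1 library at a time gave 8 to 18 for the average, 0 to 0 at days 0, 2 and 4, 0 to 15 at day 6 and 0 to 19 at day 8. For changes over days it gave 4 to 13 in scrambled and 1 to 8 in knockdown cells between day 2 and day 0, 1 to 20 in scrambled and 0 to 1 in knockdown cells between day 8 and day 0, and 0 to 0 for the change of effect. The cause of these shifts was not tested. Among the alternatives, shares of all genes are given for the replicate block only. The counts of the others, here and above, show stability and nothing particular to the carriers. Over all alternatives, results for single carriers that were called stayed called 933 times and fell short of the threshold 198 times in the same direction. Those not called came past it 232 times. Low carriers were compressed by the deposited scale, and not only those under 1 RPM. For Slc25a23, at 3.80 to 8.80 RPM at day 8, the day 8 difference was -0.63 on that scale and -0.87 on recovered reads.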

Other observations

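Slc25a34, an orphan carrier chosen here after its values were seen, had its highest levels in scrambled library 2 of days 4, 6 and 8. At day 8 it was at 0.144 and 0.423 RPM in knockdown cells, against 0.116 and 7.16 RPM in scrambled cells. At day 6 it was at 0.564 and 1.83 RPM in knockdown cells, against 0.989 and 8.62 RPM in scrambled cells. At day 2 both knockdown libraries held no read of it. Slc25a33, a pyrimidine nucleotide carrier, had 8.30 and 11.5 RPM in knockdown cells at day 8, against 5.34 and 15.9 RPM in scrambled cells, and 28.2 RPM in scrambled library 2 of day 6. Neither was called in the average knockdown effect (limma adjusted p = 0.201 for Slc25a34 and 0.698 for Slc25a33).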
